A study of Liolaemus parthenos with 3 samples.

Results

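The minor LINE clades are the long interspersed elements (LINEs) of a lizard that belong neither to the CR1 and RTE clades nor to L1 itself. They were taken by name from a table of estimated reads per element subfamily: every row filed under a LINE clade, except CR1, L2, the RTE rows and L1. Of the 31 rows, 8 met this rule. These were NeSL, R4 and R4-Dong, filed under R2, then I, Jockey, Vingi and Nimb, filed under I, and Tx1, filed under L1. The table has no row for R2 itself. The members held 9932 reads over the 3 libraries, and 7 of them had the 20 reads or more set as the minimum for describing a row alone. Nimb, with 10 reads, is counted in sums only.

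The libraries came from 3 tissues (brain, ovary, liver) in a single individual, 1 adult of the parthenogenetic lizard Liolaemus parthenos, so all groups share 1 animal and its genotype. Total RNA was sequenced without strand information, with 1 library per tissue, in a trial of a method for measuring element expression without a genome. There was no replicate and no test between tissues was possible. Intervals are exact 95% counting intervals, the differences describe these libraries, and an element's reads cannot be told from those of an antisense gene. The files name elements and no genes, so the tissue labels were not checked against tissue markers.

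The table held 5468656 reads in the Brain column, 1143616 in Ovary and 1717904 in Liver. A second source, 1 quantification file per sample with 480 assembled transcripts, held 16405, 4651 and 10644 reads. There the labels conflict, since the file attached to the ovary sample has liver in its name and the file attached to the liver sample has ovary. Table values are therefore given by column name, file values by the sample each file is attached to (the ovary-record and the liver-record library), and no value was used to choose between the names. A result that sets brain against both others does not depend on these names, whereas one between ovary and liver would turn round if the names were exchanged. Whole-table shares depend on SINE3, a short interspersed element that took 91.4% of reads in the Brain column, 77.6% in Ovary and 84.3% in Liver.

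LINEs are retrotransposons that code for their own reverse transcriptase and copy their RNA into DNA at a nick in the target. Members of the R2 group carry an endonuclease that resembles a restriction enzyme, and several insert at fixed sites. R2 of insects inserts in ribosomal RNA genes, and NeSL was named for the spliced leader genes it enters in Caenorhabditis elegans. Members of the I group carry an endonuclease of the apurinic/apyrimidinic type instead. The I element of Drosophila melanogaster is known for moving in the female germline in hybrid dysgenesis. Tx1, named from Xenopus, is a relative of L1 that inserts at specific targets.

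All members together had 6100 reads in the Brain column, 2006 in Ovary and 1826 in Liver. This was 1115 CPM (reads per 1000000 reads of the column) in brain (1088 to 1144), 1754 in ovary (1678 to 1832) and 1063 in liver (1015 to 1113). The Ovary column was thus highest on this scale, and the Brain and Liver columns did not differ beyond counting error, with a ratio of 1.05 (0.996 to 1.11). In whole tissues, fewer cells that transcribe an element and less of its RNA per cell cannot be told apart. With SINE3 left out of the totals, the order changed: the members held 1.30% of what was left in the Brain column, 0.784% in Ovary and 0.677% in Liver. Among LINE reads alone they took 2.69% in the Brain column (2.62 to 2.76), 1.94% in Ovary (1.86 to 2.03) and 1.22% in Liver (1.16 to 1.28). These shares followed the order brain, ovary, liver, with no overlap of the intervals. L2, a LINE clade outside the members, had the same order, with 14.6%, 9.57% and 4.80% of LINE reads, and its brain over liver ratio of 3.05 (2.98 to 3.13) was above the 2.21 of the members (2.09 to 2.33). CR1, the leading LINE, took 63.3%, 62.0% and 81.9% in the Brain, Ovary and Liver columns.

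**Figure D1:**
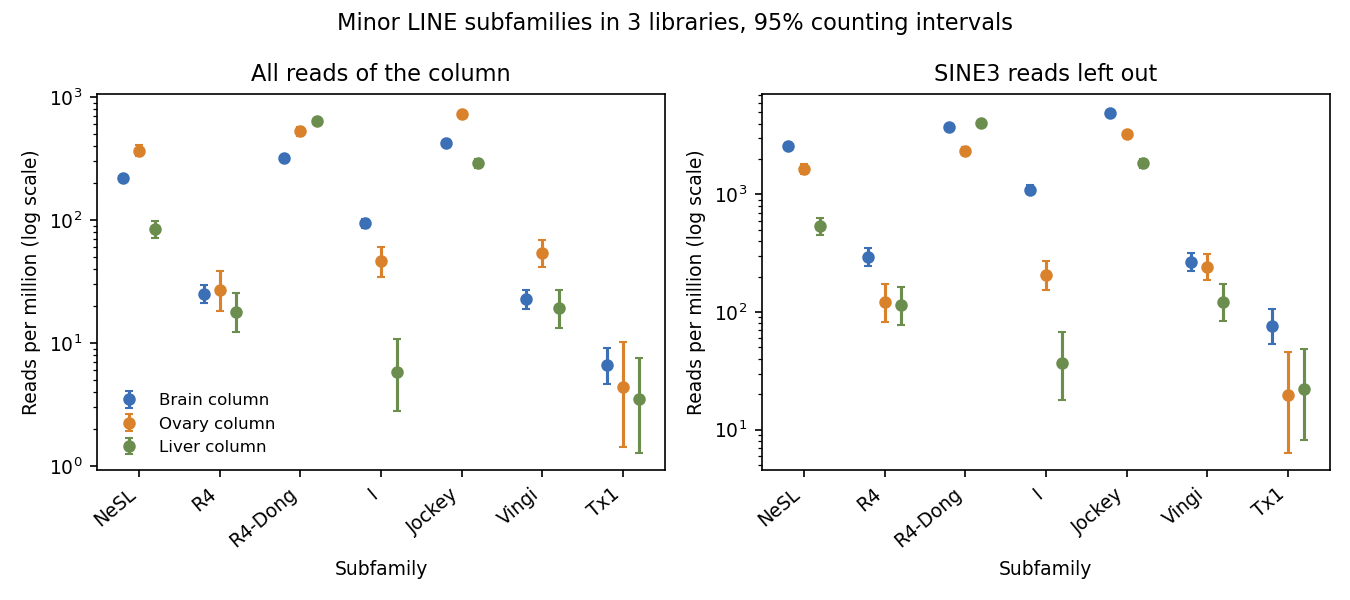
CPM of the 7 minor LINE subfamilies with 20 or more reads, on log axes, in the Brain, Ovary and Liver columns, once over all reads and once with SINE3 reads left out. Bars are 95% counting intervals of 1 library each, and only the I element (94.4, 46.3 and 5.82 CPM over all reads) keeps the order brain, ovary, liver with separate intervals in both panels.

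Within the R2 group, NeSL had 1204 reads in the Brain column, 421 in Ovary and 145 in Liver. Its level was 220 CPM in brain (208 to 233), 368 in ovary (334 to 405) and 84.4 in liver (71.2 to 99.3). Over all reads NeSL was lowest in the Liver column, where it stood 4.36-fold below ovary (3.60 to 5.30) and 2.61-fold below brain (2.19 to 3.12). The order of brain and ovary depended on the scale: with SINE3 left out, NeSL stood 1.56-fold above ovary in brain (1.39 to 1.75), against 1.67-fold lower over all reads (1.49 to 1.87). With TMM factors both gaps to Liver fell short of the 2-fold of the rule for calls, with log2 ratios of 0.64 for ovary over liver and 0.93 for brain over liver, and with median-of-ratios factors they were 0.83 and 0.97. In the authors' deposited log2 CPM table, NeSL was lowest in the Brain column instead, at 7.12 beside 8.07 in Ovary and 7.52 in Liver.

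R4-Dong, a row that joins the related R4 and Dong elements, had 1746 reads in the Brain column, 602 in Ovary and 1103 in Liver. Its level was 319 CPM in brain (304 to 335), 526 in ovary (485 to 570) and 642 in liver (605 to 681). It was the only one of the 7 members with its highest level in the Liver column, both over all reads and with SINE3 left out. Without SINE3 the brain and liver levels came close, at 3723 and 4088 CPM, and among LINE reads their ratio was 1.05 (0.969 to 1.13), within counting error. The Ovary column lay below Liver under all 6 scalings of the table, with log2 ratios from -1.77 to -0.29.

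R4, the row of elements named R4 alone, had 138 reads in the Brain column, 31 in Ovary and 31 in Liver. Its levels of 25.3, 27.1 and 18.0 CPM did not differ beyond counting error in any pair. With SINE3 left out, R4 in the Brain column stood 2.43-fold above Ovary (1.63 to 3.71) and 2.56-fold above Liver (1.73 to 3.91). This depended on the scaling. With TMM factors the log2 ratio was 0.93 for brain over ovary but 0.036 for brain over liver. Median-of-ratios factors gave 0.78 and 0.078, and the authors' deposited log2 CPM 1.08 and 0.41. R4 therefore did not move with R4-Dong: per 100 reads of R4-Dong it had 7.92 reads in the Brain and 2.81 in the Liver column, a 2.81-fold difference (1.88 to 4.33) that no constant scaling of the libraries can change.

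In the I group, the I element had 516 reads in the Brain column, 53 in Ovary and 10 in Liver. Its level was 94.4 CPM in brain (86.4 to 103), 46.3 in ovary (34.7 to 60.6) and 5.82 in liver (2.79 to 10.7). The 3 intervals were separate, and brain was highest under all 6 scalings of the table. Relative to the median of all rows with enough reads, the log2 ratio of the I element was 2.06 for brain over ovary and 3.73 for brain over liver. It ranked 1 of 28 rows in each of these comparisons, which share the Brain library. For ovary over liver it stood 1.45 above the median row and ranked 4 of 26.

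Jockey, named from a Drosophila element, had 2327 reads in the Brain column, 831 in Ovary and 497 in Liver. Its level was 426 CPM in brain (408 to 443), 727 in ovary (678 to 778) and 289 in liver (264 to 316). Ovary was highest and liver lowest over all reads, while without SINE3 the Brain column led with 4963 CPM against 3250 and 1842. In the authors' deposited log2 CPM table, Jockey differed by -0.27 between the Ovary and Liver columns, and with TMM factors the log2 ratio was -0.15, against 1.33 over all reads, so its direction there was not settled by these values.

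Vingi, a clade related to the Ingi elements of trypanosomes, had 125 reads in the Brain column, 62 in Ovary and 33 in Liver. Its level was 22.9 CPM in brain (19.0 to 27.2), 54.2 in ovary (41.6 to 69.5) and 19.2 in liver (13.2 to 27.0). Over all reads the Ovary column lay above the others. Without SINE3 the brain and ovary levels were 267 and 242 CPM, with overlapping intervals, and liver was lowest at 122. The log2 ratio for ovary over liver, 1.497 over all reads, was 0.016 after TMM scaling and 0.20 by median-of-ratios factors, so that Vingi no longer passed the rule for calls there.

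Tx1, the single member filed under L1, had 36 reads in the Brain column, 5 in Ovary and 6 in Liver. Its levels of 6.58, 4.37 and 3.49 CPM overlapped within their intervals over all reads. With SINE3 left out, brain was 3.93-fold above ovary (1.54 to 12.8) and 3.45-fold above liver (1.44 to 10.03), on the few reads given. In the authors' deposited log2 CPM table, Tx1 was highest in the Liver column instead, at 3.45 beside 2.48 in Brain and 1.06 in Ovary.

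By the rule used for all rows (a ratio of shares of at least 2, 20 reads over both libraries and an interval on one side of 1), 7 members could be judged between the Brain and Ovary columns. The I element was higher and Vingi lower in brain, and 5 were neither. Over all 28 rows with enough reads, 3.57% were higher, which is the I element alone, and 53.6% were lower, with 1 of 7 members among them. Their median log2 ratio was -0.72, beside -1.04 over the 28 rows.

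Between the Brain and Liver columns, the I element and NeSL were higher in brain, R4-Dong was lower, and 4 of the 7 were neither. Over all 28 rows 21.4% were higher and 21.4% lower, with a median log2 ratio of 0.29 beside 0.56 for the members. Between the Ovary and Liver columns, 6 members could be judged, and I, Jockey, Vingi and NeSL were higher in ovary, 0 lower. There 65.4% of 26 rows were higher and 3.85% lower, so the members' count was near the background, with a median log2 ratio of 1.41 beside 1.54. With SINE3 left out, 3 of 7 were higher in brain than in ovary (18.5% of 27 rows) and 6 of 7 higher in brain than in liver (70.4% of 27 rows, with 3.7% lower), R4-Dong being the exception. Between ovary and liver 2 of 6 were then higher in ovary (52% of 25 rows, 8% lower). With LINE reads as the total, 3 of 7 were higher in brain than in ovary (23.1% of 13 LINE rows), 6 of 7 higher in brain than in liver (76.9%) and 4 of 6 higher in ovary than in liver (50% of 12), with 0 lower among the LINE rows in each pair.

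**Figure D2:**
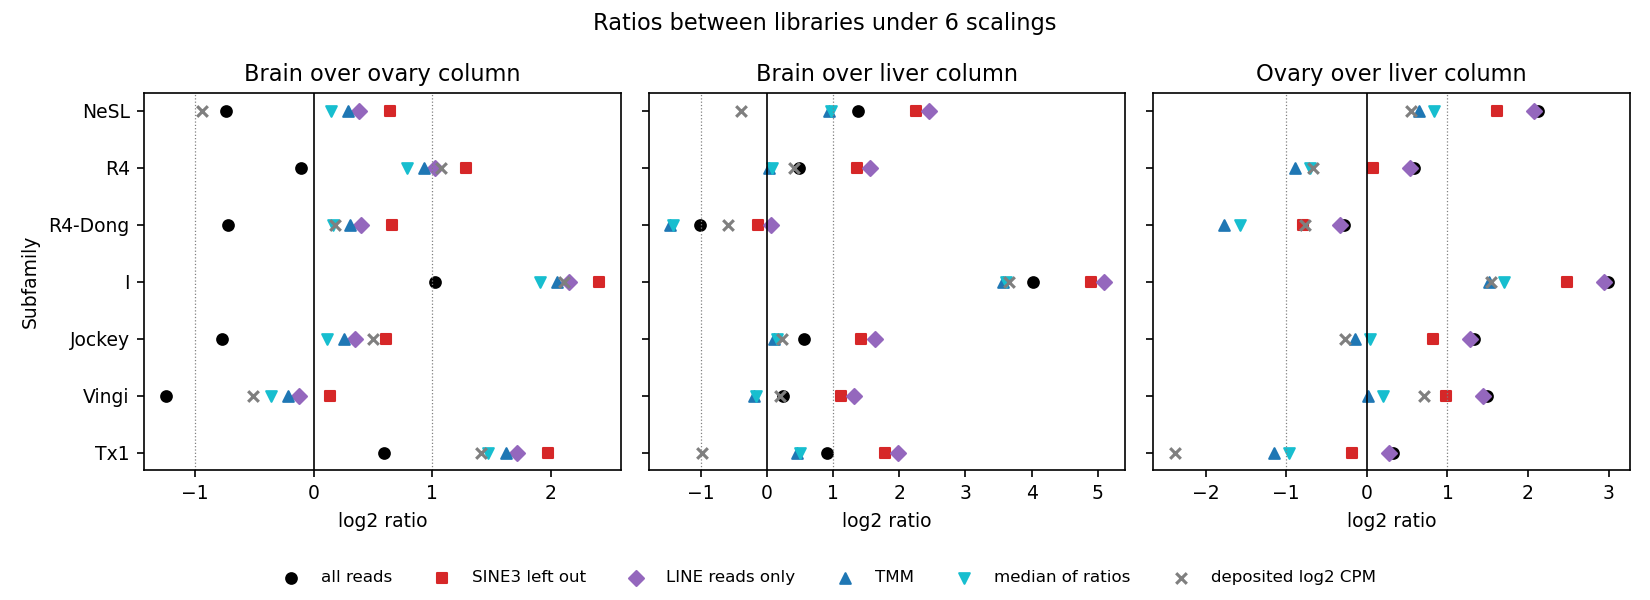
The log2 ratio of each of the 7 subfamilies for brain over ovary, then brain over liver, then ovary over liver, with 1 marker for each of 6 scalings and dotted lines at a 2-fold difference. The I element lies to the right of 0 in all 3 panels under all 6 scalings, from 1.03 to 2.41 for brain over ovary and from 3.57 to 5.09 for brain over liver, while each of the 6 other rows lies on both sides of 0 in at least 1 panel.

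Ratios between members within a library are free of the library total. When such a ratio is compared between libraries, length cancels only if the transcripts of a subfamily are mixed alike in each. The subfamily counts do not show this mix, and in the quantification files the NeSL transcripts did not move together. In the make-up of the member reads, R4-Dong and NeSL took shares with overlapping intervals in brain and ovary, and the I element did not. R4-Dong made up 28.6% of member reads in the Brain (27.5 to 29.8) and 30.0% in the Ovary column (28.0 to 32.1), and NeSL 19.7% (18.7 to 20.8) and 21.0% (19.2 to 22.8). The I element made up 8.46% in the Brain column (7.77 to 9.19), 2.64% in Ovary (1.99 to 3.44) and 0.548% in Liver (0.263 to 1.005). In the Liver column R4-Dong alone made up 60.4% (58.1 to 62.7), and NeSL 7.94% (6.74 to 9.28). These shares compare reads, not levels per length, between subfamilies.

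**Figure D3:**
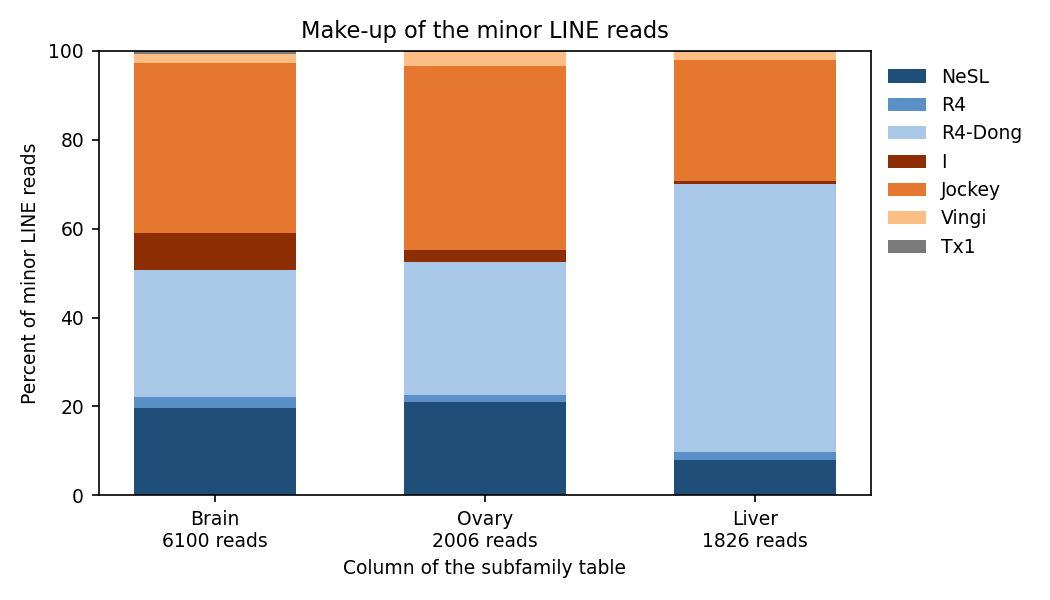
Percent of the minor LINE reads of each column taken by each subfamily, on an axis from 0 to 100, with the R2 group in blue, the I group in brown and orange and Tx1 in grey. The I element takes 8.46% of the Brain and 2.64% of the Ovary bar, R4-Dong fills 60.4% of the Liver bar, and Nimb, at most 0.131%, is left out of the bars.

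For each 100 reads of R4-Dong there were 69.0 reads of NeSL in the Brain column, 69.9 in Ovary and 13.1 in Liver. Brain and ovary did not differ in this ratio beyond counting error (0.986, 0.851 to 1.14), and both lay above liver, by 5.25-fold (4.34 to 6.37) and 5.32-fold (4.28 to 6.63). The order was the same for Jockey, with 133, 138 and 45.1 reads per 100 of R4-Dong, which put brain 2.96-fold (2.61 to 3.35) and ovary 3.06-fold (2.63 to 3.57) above liver. The authors' deposited log2 CPM differed for NeSL, with 7.12 in the Brain column, 8.07 in Ovary and 7.52 in Liver. R4-Dong had 8.76, 8.58 and 9.35 there. On that scale NeSL lay further below R4-Dong in Brain than in Ovary, so brain and ovary were not alike. In Brain and Liver it lay nearly as far below R4-Dong, so the 5.25-fold difference of the reads was mostly absent there. Jockey had deposited values of 9.05, 8.55 and 8.82 in Brain, Ovary and Liver. It lay above R4-Dong in Brain and just below it in Ovary, so brain and ovary were not alike for Jockey either. Both still stood above Liver relative to R4-Dong, but by less than in the reads.

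The I element had 29.6 reads per 100 of R4-Dong in the Brain column, 8.80 in Ovary and 0.907 in Liver, 3.36-fold higher in brain than in ovary (2.48 to 4.61) and 32.6-fold higher than in liver (17.5 to 68.7). Set against Jockey, which is filed in the same clade, it had 22.2, 6.38 and 2.01 reads per 100. The I element thus differed between brain and ovary from Jockey as well, by 3.48-fold (2.58 to 4.76). From Tx1, which had 5 reads in the Ovary column, it did not differ beyond counting error there (1.35, 0.397 to 3.67). The R2 group as a whole had 104 reads per 100 of the I group in the Brain column, 111 in Ovary and 236 in Liver. Brain and ovary did not differ in it beyond counting error, with a ratio of 0.932 (0.841 to 1.03).

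Set against CR1, R4-Dong had 1.22 reads per 100 of CR1 in the Brain column, 0.939 in Ovary and 0.899 in Liver. The last 2 did not differ beyond counting error (1.04, 0.944 to 1.15), and brain was 1.35-fold above liver (1.25 to 1.46). NeSL had 0.839, 0.657 and 0.118 reads per 100 of CR1, and Jockey 1.62, 1.30 and 0.405. Per read of CR1, the Brain column was thus 7.10-fold above Liver for NeSL (5.97 to 8.49) and 4.001-fold for Jockey (3.63 to 4.42), and Ovary was 5.56-fold (4.59 to 6.76) and 3.20-fold (2.86 to 3.58) above Liver. The authors' deposited log2 CPM in Brain and Liver was 15.44 and 16.41 for CR1, 7.12 and 7.52 for NeSL, and 9.05 and 8.82 for Jockey. On that scale Brain still stood above Liver relative to CR1, but by less for both, and by much less for NeSL. For ovary over liver the deposited difference was -0.76 for R4-Dong and -1.68 for CR1, so these columns were not alike there. For brain over ovary it was 0.18 for R4-Dong and 0.71 for CR1. Relative to CR1, R4-Dong was thus highest in Ovary on that scale, not in Brain. From its highest to its lowest library, R4-Dong moved less against CR1 than NeSL and Jockey did.

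Among all 30 rows with reads in every column, the rows most like each member were found by the distance of log2 shares over the 3 columns, each row centred on its mean. R4-Dong lay nearest to CR1, at a distance of 0.33, then to RTEX at 0.41. Jockey lay nearest to DIRS at 0.21 and to L2 at 0.22. R4 lay nearest to LINEs with no clade name, at 0.26. The I element had no close row: its nearest was SINE2 at 1.01, followed by NeSL at 1.90. The nearest rows of NeSL, Vingi and Tx1 rested on few reads, being CER8-I_CE, the unclassified LTR row and Nimb. Their next nearest rows were RTE at 0.55 for NeSL, DIRS at 0.21 for Vingi and R4 at 0.49 for Tx1. RTE here is the single row of that name, not the whole RTE clade, and it also rested on few reads. Its log2 CPM over all reads was 2.46 in the Brain column, 3.81 in Ovary and 1.80 in Liver. For Tx1 these values were 2.72, 2.13 and 1.80.

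The authors' table of assembled transcripts gave a member name to 338 of 19207 named transcripts, or 1.76%. There were 108 transcripts for Jockey, 102 for R4-Dong, 86 for NeSL, 21 for the I element, 8 for Vingi, 8 for R4, 4 for Tx1 and 1 for Nimb. The assembler had placed them in 209 genes, its term for groups of related transcripts, and in 0 of these did a member share the gene with a transcript of another element name. Such sharing was rare among all elements: 10 of the 19207 named transcripts lay in genes with more than 1 element name. The 0 is therefore near the background and not a trait of the members. The 21 transcripts of the I element lay in 21 genes, whereas the 86 of NeSL lay in 55 and the 102 of R4-Dong in 59. A separate gene for each transcript was not particular to the I element, since the 4 of Tx1 lay in 4. Outside the members, the 5758 transcripts of CR1 lay in 4651 genes, the 1524 of L1 in 1213 and the 241 of SINE3 in 134.

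Divided by the number of named transcripts, the I element had 24.6 reads per transcript in the Brain column, 2.52 in Ovary and 0.476 in Liver. The medians over all 31 rows were 17.4, 7.69 and 5. The I element was thus above the median row in the Brain and below it in both other columns. R4-Dong had 17.1, 5.90 and 10.8 reads per transcript, above the median row in the Liver column.

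The quantification files held 11 member transcripts, 4 of the I element and 7 of NeSL, and none of the other members. They were 230 to 700 bases long, with a median of 355, beside 284 over the 480 transcripts. Reads were found for 10 of the 11 in brain, 4 in the ovary-record library and 9 in the liver-record library. Over all 480 transcripts, reads were found for 445, 262 and 290 in the same order, so the count in brain was near the background. Together they had 142, 13 and 101 reads, which is 0.866% of the file in brain (0.730 to 1.02), 0.280% in the ovary-record library (0.149 to 0.477) and 0.949% in the liver-record library (0.774 to 1.15).

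The 4 transcripts of the I element had 32 reads in brain, 5 in the ovary-record library and 6 in the liver-record library. Their share in brain stood 3.46-fold above the liver-record library (1.43 to 10.1) and 1.81-fold above the ovary-record library (0.702 to 5.97), an interval that includes 1. As TPM, which corrects for length, they summed to 3823, 4164 and 1907, so that brain no longer led. The one with most reads (TRINITY_DN316445_c0_g1_i1, 538 bases) had 13 reads in brain, 0 in the ovary-record library and 3 in the liver-record library. A count of 0 of 4651 reads has an exact upper limit of 0.0793%, beside 0.0792% in brain, so the difference is not beyond counting error at this depth.

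The 7 transcripts of NeSL had 110 reads in brain, 8 in the ovary-record library and 95 in the liver-record library, or 0.671%, 0.172% and 0.893% of the files. The liver-record library was 5.19-fold above the ovary-record library (2.53 to 12.4), while in the table the Liver column was below the Ovary column. These directions are opposite under the recorded names, but a part is set beside a whole. The files hold 7 of the 86 named NeSL transcripts. Under the recorded names, their reads amounted to 9.14% of the NeSL row for brain, 1.90% for ovary and 65.5% for liver. Whether this part or the names account for the opposite directions was not tested. The conflict of names lies between the quantification files and their sample records, and the direction in the files would turn round if those names were exchanged. Whether it also reaches the columns of the table cannot be told from the labels. Brain was 3.90-fold above the ovary-record library (1.91 to 9.26) and 1.33-fold below the liver-record library (1.001 to 1.77). As TPM the gap to the liver-record library was wider, with sums of 5882 in brain and 19686 there.

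The NeSL transcripts did not move together. The longest (TRINITY_DN26082_c0_g1_i9, 700 bases) had 82 reads in brain, 7 in the ovary-record library and 28 in the liver-record library. Its share was highest in brain, 1.90-fold above the liver-record library (1.22 to 3.03) and 3.32-fold above the ovary-record library (1.54 to 8.52). The 5 transcripts of another assembler cluster, DN19545, had 27 reads in brain, 0 in the ovary-record library and 64 in the liver-record library. Their share was 3.65-fold higher in the liver-record library than in brain (2.30 to 5.96). With the count of 0 set at the floor of 3 reads, it was 9.32-fold higher there than in the ovary-record library. This value depends on the floor and is not a lower limit.

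Per 100 reads of the DN19545 transcripts there were thus 304 reads of TRINITY_DN26082_c0_g1_i9 in brain and 43.8 in the liver-record library. This 6.94-fold difference (3.57 to 13.6) does not depend on the totals. The DN19545 sum was chosen after its values were seen, and the interval does not cover that choice. Reads were divided by the quantification among transcripts within the 2 genes of DN19545, so single values there are uncertain. TRINITY_DN19545_c0_g1_i6 (690 bases) was given 12.8 reads in brain, 0 in the ovary-record library and 25.6 in the liver-record library, and TRINITY_DN19545_c1_g1_i3 (355 bases) 4.96, 0 and 27.0. Summed by gene the reads were 19, 0 and 30 for DN19545_c0_g1 and 8, 0 and 34 for DN19545_c1_g1, so both genes were highest in the liver-record library.

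By the rule for calls, 3 member transcripts had enough reads between brain and the liver-record library, and both of the DN19545 transcripts just named were lower in brain. Over the 135 transcripts judged there, 16.3% were lower and 51.1% higher in brain. Between brain and the ovary-record library, the single member judged, TRINITY_DN26082_c0_g1_i9, was higher in brain, as were 33.1% of 118 transcripts. Between the ovary-record and liver-record libraries, the same DN19545 transcripts were lower in the ovary-record library, 2 of 3 members, against 34.4% of 61 transcripts.

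**Figure D4:**
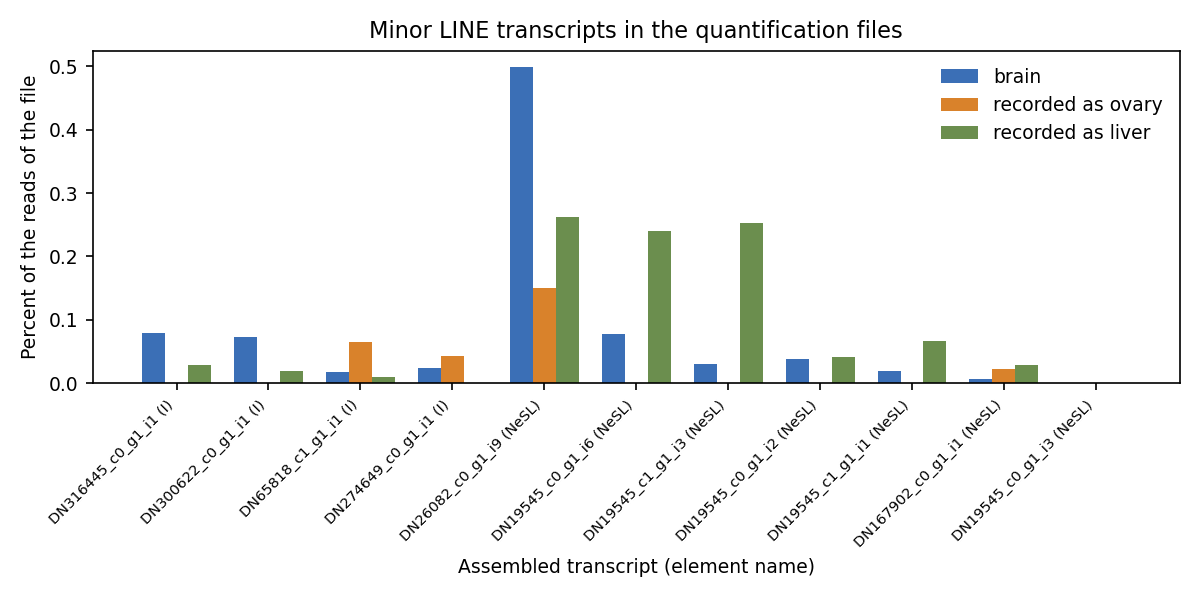
Percent of the reads of each quantification file taken by each of the 11 minor LINE transcripts, on an axis from 0, for brain and for the ovary-record and liver-record libraries. The bar of DN26082_c0_g1_i9 is tallest in brain, at 0.4998%, and those of the DN19545 transcripts with reads are tallest in the liver-record library.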

How the data were processed

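RNA of 3 tissues of 1 animal was measured, 1 library each. The authors deposited estimated counts per element subfamily (31 rows; 87.5% of the members' values lie within 0.01 of a whole number). They also deposited a log2 CPM table (27 rows, 7 of them members), whose base 2 is read off the values and whose scaling no source used here gives; SINE3 in its Liver column corresponds to 1557702 CPM. Per the file headers, 3 quantification files in Salmon's layout give expected counts and TPM for 480 transcripts, TPM summing to 1000000. Another table deposited by the authors names the assembled transcripts. Bowtie2 2.3.4.1 is named without a role per the submitters' processing notes. Aligner settings, assembler version and repeat annotation are not stated in any source used here.

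Table columns were assigned by name and quantification files by sample record. Counts were rounded to whole reads for exact Clopper-Pearson intervals of shares, exact conditional binomial intervals of ratios and exact conditional intervals of odds ratios between members (scipy 1.17.1, Python 3.11.15). For 0 reads a floor of 3 reads was used. Intervals and floors cover counting error only, because without molecular identifiers reads are not independent molecules; division of reads among transcripts is not covered. The depth of the whole libraries is unknown. TMM factors came from edgeR 4.0.16 and median-of-ratios factors from DESeq2 1.42.0, as scalings only, with no test. The functions were tested on simulated data. Named are every member row with 20 reads or more, the member transcripts with 20 reads or more and the transcript with most reads of each subfamily; the summed DN19545 genes were chosen after their values were seen. The members and lists were chosen with earlier results of these data known. No sequence of the transcripts was used here.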

Additional observations from a re-analysis of the deposited data

How the results depend on the processing

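No paired analysis was possible because each tissue has 1 library. The rule took in no L2 row, so leaving L2 out was not run. Scalings move every log2 ratio between columns by a constant: for brain over ovary, then brain over liver, then ovary over liver by 1.38, 0.87 and -0.51 with SINE3 left out, 1.12, 1.07 and -0.051 with LINE reads as the total, 1.03, -0.45 and -1.48 under TMM and 0.88, -0.41 and -1.29 by median-of-ratios factors. The log2 ratio of the summed members for brain over ovary, -0.65 over all reads, was 0.73, 0.47, 0.38 and 0.23 under these scalings in the order given, 0.21 in the authors' deposited log2 CPM table and -0.57 without Jockey, the member with most reads. For brain over liver, 0.070 over all reads, the values were 0.94, 1.14, -0.38 and -0.34, then -0.078 in the authors' deposited table and -0.17 without Jockey. For ovary over liver, 0.72 over all reads, SINE3 left out gave 0.21, TMM -0.76, median-of-ratios factors -0.57, the authors' deposited table -0.29 and leaving out Jockey 0.41. The direction of the sum thus depended on the scaling in every pair.

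The count of members higher in the Brain column than in Ovary, 1, became 3 with SINE3 left out, with LINE reads as the total and in the authors' deposited table, and 2 with either set of factors. The count lower, 1, became 0 under each of these 5, and 4 at a fold of 1.5. For brain over liver, 2 higher became 6 with SINE3 left out or LINE reads as the total and 1 with either set of factors or in the authors' deposited table, and 1 lower became 0 with SINE3 left out, with LINE reads as the total and in the authors' deposited table. For ovary over liver, 4 higher became 2 with SINE3 left out or at a minimum of 100 reads and 1 with either set of factors or in the authors' deposited table, and 0 lower became 1 with either set of factors. Dropping the minimum of reads left all 6 counts within 1.5 times.

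Of the 21 log2 ratios of single members (7 members, 3 pairs), 12 changed sign under at least 1 of the 5 other scalings of the table, the deposited one included: 5 when brain was set over ovary, 4 when brain was set over liver and 3 in the remaining pair. For brain over ovary, R4-Dong, R4 and Jockey went from below 0 to above 0 under all 5, and NeSL under all but the authors' deposited table. Of the ratios that passed the rule for calls, those that changed sign were as follows. Vingi for brain over ovary was 0.14 with SINE3 left out, against -1.25. NeSL for brain over liver was -0.39 in the authors' deposited log2 CPM table, against 1.38. R4-Dong for brain over liver was 0.064 with LINE reads as the total, against -1.01. Jockey for ovary over liver was -0.15 with TMM factors and -0.27 in the authors' deposited table, against 1.33. Where a cause does not follow from the constant shifts, the cause was not tested.

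For the summed member transcripts of the quantification files, the log2 ratio for brain over the ovary-record library was 1.63 as reads and 0.70 as TPM. For brain over the liver-record library it was -0.13 as reads, -1.15 as TPM and -0.91 without TRINITY_DN26082_c0_g1_i9. Low read numbers widen the intervals of Tx1, R4, the I element in the Liver column and single transcripts.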

Other observations

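The authors' deposited log2 CPM did not differ from log2 of the plain CPM by a constant within a column. Over the 7 members, the deposited value minus the plain value ran from -0.66 (NeSL) to 0.44 (R4-Dong) in the Brain column, from -1.06 (Tx1) to -0.46 (NeSL) in the Ovary column and from 0.020 (R4-Dong) to 1.64 (Tx1) in the Liver column. Over the 20 other rows the ranges were -0.78 to 1.37, -2.67 to -0.18 and -0.026 to 1.78. A difference of deposited values between members therefore does not equal the log2 ratio of their reads: in the Liver column R4-Dong had a deposited log2 CPM of 9.35 and NeSL of 7.52, against plain values of 9.33 and 6.40.

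In the quantification files the I element had 29.1 reads per 100 of NeSL in brain, 62.5 in the ovary-record library and 6.32 in the liver-record library. In the table the ratio of the whole rows was 42.9 in the Brain column, 12.6 in Ovary and 6.90 in Liver. The files hold 4 of the 21 named transcripts of the I element and 7 of the 86 of NeSL, so a part is set beside the whole. Between brain and the liver-record library, the ratio in the files differed by 4.61-fold (1.79 to 14.0), and between the Brain and Liver columns by 6.21-fold (3.25 to 13.3). For brain over the ovary-record library it was 0.465 in the files (0.125 to 1.95), an interval that includes 1. For the Brain over the Ovary column it was 3.40 (2.50 to 4.70). These 2 intervals do not overlap, so files and columns differed here under the recorded names. Whether the part of the transcripts, the names or another reason accounts for this was not tested. The file of the ovary-record library held 5 and 8 reads of these elements.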
